A study of Mus musculus with 23 samples.

Results

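Hippocampal gene expression was compared between 4 exercised fathers and 4 sedentary fathers, which make up 8 of the 23 libraries of the series and were chosen by their labels alone. The exercised fathers were male wild-type C57BL/6 mice, an inbred laboratory strain, that ran on a treadmill for 40 minutes every day over 6 weeks. The sedentary fathers were males of that strain and genotype with no access to a treadmill or other physical activity. Both groups then performed hippocampal tasks, were bred, and were killed at 7 months, so that the libraries read the hippocampus after testing and breeding and not at the end of training. The remaining 15 libraries come from male offspring killed at 5.5 months, 7 of exercised and 8 of sedentary fathers, and serve here to measure how each gene follows neighbouring tissue.

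The hippocampus is a cortical structure for spatial and episodic memory, built from the granule cells of the dentate gyrus and the pyramidal cells of CA1 to CA3 with their inhibitory interneurons and glia. In rodents, running is known for raising the birth of dentate granule cells and for acting on synaptic plasticity. The choroid plexus, an epithelium in the ventricle beside the hippocampus that secretes cerebrospinal fluid, carries transthyretin (Ttr) mRNA at very high levels. Thalamus and habenula lie beneath the hippocampus and express the transcription factor Tcf7l2. Both genes are used here as measures of adjoining tissue in a dissected hippocampus, and Tcf7l2 does not separate thalamus from habenula. In bulk RNA, fewer cells of a type and less RNA per cell cannot be told apart.

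The 8 libraries held between 40124885 and 55172616 reads, of which the top 10 genes made up 8.93% to 10.62%. Markers of the labelled tissue were present in every library. The summed normalized count of 12 dentate granule cell markers ran from 30169 to 36314 in exercised fathers and from 30958 to 35838 in sedentary fathers, and that of 11 CA1 markers from 36416 to 44150 in exercised fathers and from 38027 to 42757 in sedentary fathers. Libraries stood apart inside both groups. The first principal component of log2 expression, with 31.4% of the variance, set sedentary replicates 1 and 2 (loadings 0.69 and 0.45) against the other 6 fathers. The second, with 16.1%, set sedentary replicates 3 and 4 (0.37 and 0.58) against exercised replicates 1 and 4 (-0.52 and -0.44).

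Ttr had 169193, 119331, 46044 and 73908 in exercised fathers, against 770, 6009, 163326 and 121017 in sedentary fathers, in normalized counts, which are reads scaled to a common library size. All exercised libraries were high, and the sedentary libraries split into a pair below all exercised libraries and a pair within the exercised range. Tcf7l2 had 263, 231, 376 and 433 in exercised fathers, against 225, 588, 901 and 1848 in sedentary fathers. Here sedentary replicates 2, 3 and 4 lay above all exercised libraries and sedentary replicate 1 lay below them. The mean log2 level of Ttr was 16.47 ± 0.82 in exercised fathers and 14.09 ± 3.69 in sedentary fathers, and that of Tcf7l2 was 8.30 ± 0.43 in exercised fathers and 9.42 ± 1.27 in sedentary fathers (SD, n = 4 each). Neither difference exceeded the spread between libraries, with a two-sided exact permutation p of 0.343 for Ttr and 0.171 for Tcf7l2, both 0.343 after adjustment over the 2 genes, where 4 against 4 libraries cannot give less than 0.0286. Of 20 choroid plexus markers all had a higher mean in exercised fathers, with a summed normalized count from 89422 to 311412 in exercised fathers and from 12261 to 283625 in sedentary fathers. Of 23 thalamus and habenula markers 19 had a lower mean, with a sum from 14679 to 20254 in exercised fathers and from 15038 to 37675 in sedentary fathers, and no marker of either list was under 10 counts in all libraries. Markers of vessels, meninges and blood had mostly lower means in exercised fathers. They were lower for 11 of 12 brain endothelial markers, 4 of them at an unadjusted p under 0.05, for 10 of 10 mural, 10 of 12 meningeal and 5 of 5 erythrocyte markers, with median log2 fold changes of -0.19, -0.19, -0.41 and -0.81. Over all genes, 625 of the 17493 tested with limma were lower at that p. The summed counts of these markers overlapped between the groups. Those of endothelial markers ran from 10937 to 14349 in exercised fathers and from 12887 to 15009 in sedentary fathers, and those of mural markers from 7216 to 11050 in exercised fathers and from 8880 to 11290 in sedentary fathers. Those of meningeal markers ran from 5092 to 9754 in exercised fathers and from 4888 to 10854 in sedentary fathers, and those of erythrocyte markers from 472 to 1455 in exercised fathers and from 1011 to 4301 in sedentary fathers. None of these markers was under 10 counts in all libraries, and their part in the results below was not tested. Over single genes the median share of variance among the 8 libraries that ran with Ttr was 15.88%, above the 11.17% that ran with the groups, and the share that ran with Tcf7l2 was 10.78%.

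**Figure D1:**
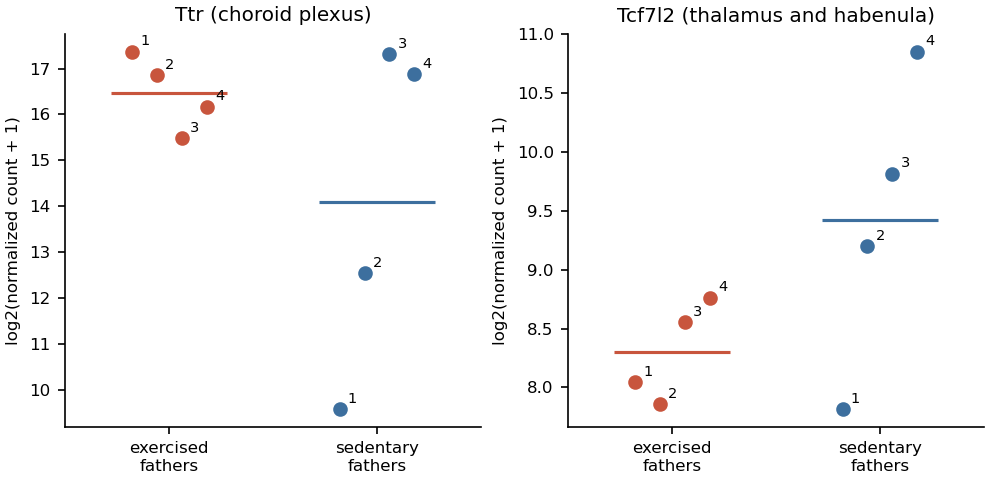
Level of Ttr and of Tcf7l2 on a log2(normalized count + 1) scale in each of the 4 exercised and 4 sedentary fathers, numbered by replicate, with the group mean as a line. Sedentary replicates 1 and 2 are lowest in Ttr, and sedentary replicates 3 and 4 are highest in Tcf7l2.

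No gene passed the adjusted limma test. Of 17493 genes tested with limma on log2(normalized count + 1), 0 (0.00%) had a Benjamini-Hochberg adjusted p under 0.05, and 1402 (8.01%) had an unadjusted p under 0.05, of which 777 were higher and 625 lower in exercised fathers. In the recovered reads edgeR made 0 calls after adjustment and put 1434 genes at an unadjusted p under 0.05, while DESeq2 made 66 calls, 33 in each direction. The differences were small. The median absolute log2 fold change of exercised over sedentary was 0.07 and the median standard error 0.08, and 122 genes differed by 1 or more on the log2 scale.

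Genes were then sorted by whether all 4 exercised libraries lay on one side of all 4 sedentary libraries. This was so for 874 genes, of which 465 were higher (2.66% of those tested) and 409 lower (2.34%) in exercised fathers. To take choroid plexus and thalamus content into account, each gene's slope on log2 Ttr and log2 Tcf7l2 was measured in the 15 offspring libraries, with their group as a term, and the part it predicted was subtracted from the fathers. A gene is said below to hold when its groups did not overlap before and after this removal, in 1 direction, and when a fit in the fathers with both genes as covariates gave that direction too. By this measure 411 genes (2.35%) held, 187 higher (1.07%) and 224 lower (1.28%), and 463 of the 874 did not, 278 of them higher and 185 lower. Of these, 457 overlapped once content was removed and 6 turned sign in the covariate fit. After removal alone 2307 genes (13.2%) did not overlap, so removal also parted groups that had overlapped. Tcf7l2 ran from 7.82 to 10.85 in the fathers but only from 7.95 to 9.11 in the offspring on the log2 scale. Its slopes were thus extended beyond the range in which they were measured. Of the 23 thalamus and habenula markers, 3 were lower without overlap and 2 still held as lower. Their median log2 fold change of -0.51 was -0.15 after removal. Of the 20 choroid plexus markers 0 held, and their median of 1.32 was 0.10 after removal. A gene that holds is therefore not shown to be free of such content.

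The genes that held were mostly well expressed and differed little. Their median log2 fold change was 0.14 for the higher genes and -0.14 for the lower ones, each with a median standard error of 0.05, and the median normalized count was 1427 and 1775, against 629 over all genes tested. DESeq2 called 43 of the 411, 20 higher and 23 lower, against 66 of all 17493 genes tested. The 411 were chosen by separation of the same libraries, so this is no separate evidence. How many genes hold rests on the content measure. With the mean of 19 other choroid plexus and 22 other thalamus and habenula markers in place of Ttr and Tcf7l2, 206 genes held, 144 of them among the 411, which is 35.0% of that list and 69.9% of the shorter one. With Ttr alone 674 held, with Tcf7l2 alone 446, and with slopes measured in the fathers themselves 657. Under all of these measures 75 genes held, 30 higher and 45 lower.

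The genes that held also differed in base composition. The GC content of the longest transcript had a median of 55.9% for the higher genes and 42.2% for the lower genes, against 49.4% over the 17438 tested genes with a value. The tested genes were split into 4 equal classes by GC content. In the highest class, from 54.3% upward, 119 genes held as higher (63.6% of all higher genes that held) and 4 as lower in exercised fathers. In the lowest class, up to 44.5%, 4 held as higher, and 67.4% of all lower genes that held lay there. The median log2 fold change over all tested genes was 0.06 in the highest class and -0.06 in the lowest, so the direction was not particular to genes that held. Median transcript length was 3037 bases for the higher and 3987 bases for the lower genes, against 3202 over all tested. By library, the median deviation of the highest class minus that of the lowest was 0.01, 0.02, 0.05 and 0.16 on the log2 scale in exercised replicates 1 to 4, against -0.18, -0.08, -0.01 and 0.03 in sedentary replicates 1 to 4. The groups overlapped in this measure, with sedentary replicate 4 above exercised replicates 1 and 2. With a trend on GC content removed from every library, a step added after seeing the data, 582 genes did not overlap in place of 874 and 188 held in place of 411, of which 136 were among the 411 (33.1% of them, 72.3% of the 188). Under every content measure and with the GC trend removed as well, 36 genes held, 13 higher and 23 lower.

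**Figure D2:**
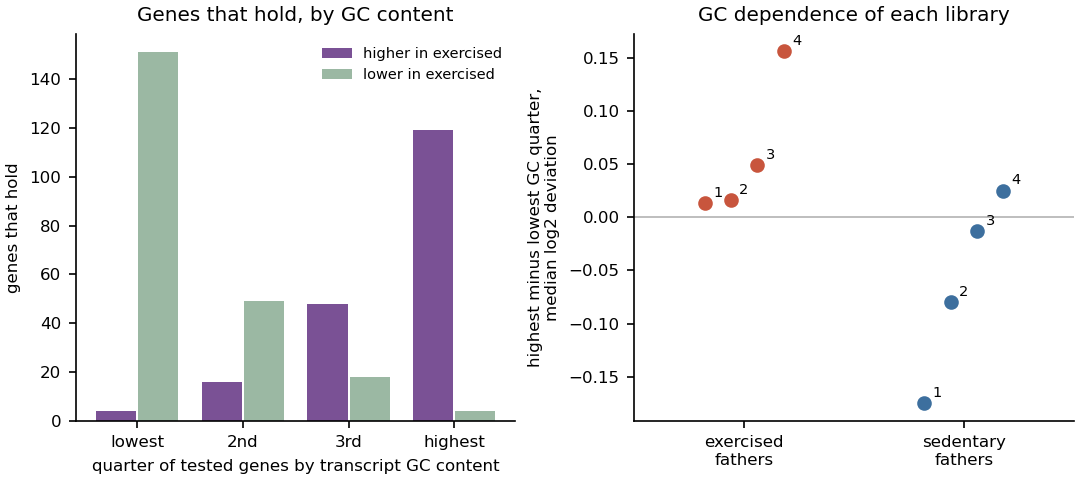
Left, number of genes that hold as higher or lower in exercised fathers, in 4 equal classes of the tested genes by GC content of the longest transcript. Right, for each of the 4 exercised and 4 sedentary libraries, the median log2 deviation from the gene mean in the highest GC class minus that in the lowest. Higher genes crowd the highest class with 63.6% of them and lower genes the lowest with 67.4%, and the library values run from -0.18 in sedentary replicate 1 to 0.16 in exercised replicate 4.

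The 12 higher protein-coding genes that held with the smallest p had log2 fold changes from 0.14 to 0.39, with standard errors from 0.03 to 0.08. Their unadjusted p ran from 0.000297 to 0.0017 and the limma adjusted p was 0.539 for each. Cnih2, an auxiliary subunit that controls trafficking and gating of AMPA receptors (ENSMUSG00000024873.6, GRCm38 chromosome 19, 5092868 to 5098521), had 11879, 11711, 12127 and 12827 in exercised fathers, against 10714, 10415, 10829 and 10046 in sedentary fathers, in normalized counts. Itpka, a kinase of inositol trisphosphate that binds actin in dendritic spines (ENSMUSG00000027296.7, GRCm38 chromosome 2, 119742337 to 119751263), had 8132, 8224, 8384 and 8890 in exercised fathers, against 7322, 7218, 7672 and 6991 in sedentary fathers. Grik5, a kainate receptor subunit (ENSMUSG00000003378.9, GRCm38 chromosome 7, 25009849 to 25072346), had 10472, 10534, 10622 and 11043 in exercised fathers, against 9382, 9978, 9222 and 9280 in sedentary fathers. In each of the 3 the lowest exercised library stood above the highest sedentary one, and their log2 fold changes were 0.21 (SE 0.04), 0.20 (SE 0.04) and 0.17 (SE 0.04). Psd, an exchange factor for the small GTPase ARF6 in neurons, had 18067, 17742, 17256 and 19771 in exercised fathers, against 16062, 15722, 15970 and 14696 in sedentary fathers (log2 fold change 0.22, SE 0.05). The transcripts of these 4 genes are rich in GC, at 62.3% for Cnih2, 61.1% for Itpka, 61.7% for Grik5 and 61.2% for Psd. With the GC trend removed, the log2 fold change was 0.12 for Cnih2, 0.13 for Itpka, 0.09 for Grik5 and 0.14 for Psd.

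Cyp4f15, a cytochrome P450 of the family that hydroxylates fatty acids (ENSMUSG00000073424.9, GRCm38 chromosome 17, 32685627 to 32703352), had 468, 434, 438 and 451 in exercised fathers, against 372, 360, 353 and 363 in sedentary fathers. The gap between the groups, from 372 to 434 counts, was wider than the spread within either, and the log2 fold change of 0.31 (SE 0.06) was 0.52 after content removal and 0.27 with the GC trend removed. Rhpn1 (ENSMUSG00000022580.12, GRCm38 chromosome 15, 75704280 to 75715485) had 289, 276, 286 and 277 in exercised fathers, against 188, 220, 235 and 219 in sedentary fathers, a log2 fold change of 0.39 (SE 0.08), the largest of the 12. Grk5, a kinase that desensitizes G protein-coupled receptors, had 497, 461, 517 and 487 in exercised fathers, against 408, 333, 421 and 383 in sedentary fathers, with a transcript GC content of 48.4%, the only one of the 12 below the median of all genes. The remaining 5 were Arpc3, a subunit of the actin-branching Arp2/3 complex (0.14), Gstm5, a glutathione transferase (0.14), Bysl, a factor of small ribosomal subunit assembly (0.19), Ssbp4 (0.22) and Grcc10 (0.16). Grcc10 overlaps a predicted protein-coding gene on its strand, so the assignment of its reads is uncertain.

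The 12 lower protein-coding genes that held with the smallest p had log2 fold changes from -0.37 to -0.16, with standard errors from 0.03 to 0.07 and a limma adjusted p of 0.539 for each. Gabra4, a GABA-A receptor subunit of extrasynaptic receptors in dentate granule cells (ENSMUSG00000029211.11, GRCm38 chromosome 5, 71569749 to 71658308), had 4899, 4579, 4526 and 4658 in exercised fathers, against 5334, 5193, 5299 and 5857 in sedentary fathers, in normalized counts. The highest exercised library lay under the lowest sedentary library, and the log2 fold change was -0.21 (SE 0.04). Rgs4, which speeds the turnoff of Gi and Gq signalling (ENSMUSG00000038530.11, GRCm38 chromosome 1, 169741477 to 169747642), had 5594, 5355, 5096 and 5254 in exercised fathers, against 6203, 6174, 6417 and 7151 in sedentary fathers. Sedentary replicate 4 was highest, and the log2 fold change of -0.28 (SE 0.05) was -0.41 after content removal and -0.25 with the GC trend removed. Rgs17, of the same family, had 3249, 3271, 3357 and 3486 in exercised fathers, against 3784, 3956, 3841 and 3888 in sedentary fathers, and its log2 fold change of -0.21 (SE 0.04) was -0.11 with the GC trend removed.

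Pcdh9, a protocadherin (ENSMUSG00000055421.8, GRCm38 chromosome 14, 93013410 to 93890679), had 6413, 6447, 6514 and 6391 in exercised fathers, against 7139, 7795, 7398 and 6951 in sedentary fathers. Cntn4, a contactin of axons, had 960, 993, 899 and 1066 in exercised fathers, against 1168, 1151, 1150 and 1276 in sedentary fathers, with sedentary replicate 4 apart from the other sedentary libraries. Shisa9, an auxiliary subunit of AMPA receptors that acts on short-term plasticity in the dentate gyrus, had 2213, 2376, 2415 and 2385 in exercised fathers, against 2760, 2920, 2638 and 2663 in sedentary fathers. For these 3 the log2 fold changes were -0.18 (SE 0.04), -0.28 (SE 0.06) and -0.23 (SE 0.04), with no overlap between the groups. Olfm3, a secreted olfactomedin that binds AMPA receptors, stood at -0.33, Inpp4b, a phosphatase of phosphoinositides, at -0.28, Btbd8 at -0.24 and Chml, a Rab escort protein, at -0.37. Chml overlaps Opn3 and Btbd8 a predicted gene on the same strand, so their reads may be shared. Nr3c1, the glucocorticoid receptor, had 4798, 4740, 4596 and 4779 in exercised fathers, against 5217, 5382, 5287 and 5217 in sedentary fathers (log2 fold change -0.16, SE 0.03). All 12 transcripts had a GC content below the median of all genes, from 36.7% for Olfm3 to 47.2% for Shisa9.

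Of these 24 genes, DESeq2 put 23 under an adjusted p of 0.05, from 0.000423 for Rgs17, with Bysl at 0.0617 as the exception. The 24 were picked by limma p and by separation of the same libraries, so these calls are no separate evidence. The DESeq2 fit had no content term. All 24 also held with slopes measured in the fathers and with Ttr alone, and 22 held with Tcf7l2 alone, the exceptions being Cnih2 and Arpc3. With the GC trend removed 12 held, 8 higher and 4 lower. With the other choroid plexus and thalamus markers only 4 held, and these same 4, namely Cyp4f15, Rhpn1, Rgs4 and Btbd8, held in every setting named here. The fit with Ttr and Tcf7l2 as covariates in the fathers kept the sign of all 24 but not their size. There the log2 fold change was -0.09 (SE 0.09) for Olfm3, -0.12 (SE 0.08) for Shisa9 and -0.12 (SE 0.07) for Rgs17, which is smaller by over 1.5 times in each, while that of Ssbp4 was larger by over 1.5 times, at 0.34 (SE 0.08).

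**Figure D3:**
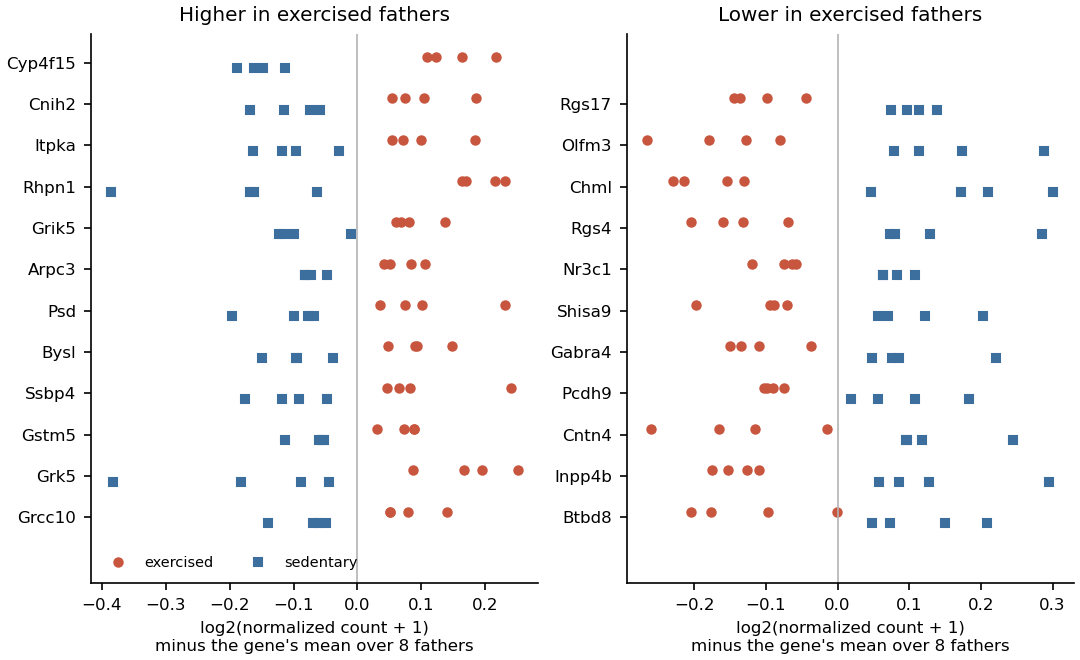
Deviation of each library from the gene's mean over the 8 fathers, on the log2(normalized count + 1) scale, for the 12 higher and 11 of the 12 lower protein-coding genes that held with the smallest p. Circles are the 4 exercised and squares the 4 sedentary libraries, and in no row do they overlap, with group differences between 0.14 for Gstm5 and 0.39 for Rhpn1 on the higher side and between -0.37 for Chml and -0.16 for Nr3c1 on the lower side.

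Promoters of the genes that held were searched for binding motifs of factors that answer neuronal activity, glucocorticoids or the E-box family, in the RefSeq promoter table for GRCm38.p6, which covers 250 bases before to 50 after each gene's start. Promoters of 1 chromosome, that of Nr3c1 among them, were not used here. Of the 411 genes, 287 matched the rest of the table by symbol, as did 12111 of all genes tested. The cAMP response element TGACGTCA was present on either strand in 3.52% of the promoters of higher genes and 3.45% of those of lower genes, against 3.15% for genes tested and 1.88% of all 27025 promoters in the table. The E-box CACGTG was present in 9.86% of the promoters of higher genes (14 of 142) and 13.8% of those of lower genes (20 of 145), against 9.71% for genes tested and 7.24% of all. The consensus glucocorticoid response element matched 1 promoter of a higher gene and 0 of a lower gene, against 0.33% for genes tested and 0.463% of all. The search read both strands, and the 3 motifs do not contain one another. Median promoter GC content was 62.5% for higher and 60.0% for lower genes, against 60.7% for genes tested.

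The promoters printed here are those of the higher and the lower gene with the smallest p among genes that held with each of the first 2 motifs. They are written 5′ to 3′ on the gene's strand, with the motif in capitals. Tmem198 (chr1:75479282-75479581, plus strand), a membrane protein of Wnt signalling that was higher in exercised fathers, holds 2 cAMP response elements, and Clasp2 (chr9:113741223-113741522, plus strand), which stabilizes microtubule ends and was lower, holds 1. Epn1 (chr7:5079985-5080284, plus strand), an endocytic adaptor that was higher, and Btbd8 (chr5:107437680-107437979, plus strand), which was lower, each hold 1 E-box.
Tmem198: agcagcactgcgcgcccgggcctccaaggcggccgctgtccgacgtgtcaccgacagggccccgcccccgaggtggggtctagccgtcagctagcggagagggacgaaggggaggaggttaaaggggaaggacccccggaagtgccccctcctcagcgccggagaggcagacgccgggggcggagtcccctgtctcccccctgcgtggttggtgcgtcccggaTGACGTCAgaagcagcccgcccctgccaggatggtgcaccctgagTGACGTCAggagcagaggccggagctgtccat
Clasp2: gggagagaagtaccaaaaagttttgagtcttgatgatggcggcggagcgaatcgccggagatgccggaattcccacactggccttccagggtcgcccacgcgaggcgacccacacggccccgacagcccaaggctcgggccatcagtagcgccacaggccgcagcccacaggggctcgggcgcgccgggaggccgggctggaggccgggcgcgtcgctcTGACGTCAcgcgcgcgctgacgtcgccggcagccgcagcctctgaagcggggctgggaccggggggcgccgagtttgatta
Epn1: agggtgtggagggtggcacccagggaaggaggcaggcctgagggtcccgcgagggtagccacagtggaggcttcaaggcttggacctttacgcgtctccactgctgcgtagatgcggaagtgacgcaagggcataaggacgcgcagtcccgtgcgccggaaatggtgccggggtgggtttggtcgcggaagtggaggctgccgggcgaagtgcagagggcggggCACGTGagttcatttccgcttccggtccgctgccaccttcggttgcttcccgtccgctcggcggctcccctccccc
Btbd8: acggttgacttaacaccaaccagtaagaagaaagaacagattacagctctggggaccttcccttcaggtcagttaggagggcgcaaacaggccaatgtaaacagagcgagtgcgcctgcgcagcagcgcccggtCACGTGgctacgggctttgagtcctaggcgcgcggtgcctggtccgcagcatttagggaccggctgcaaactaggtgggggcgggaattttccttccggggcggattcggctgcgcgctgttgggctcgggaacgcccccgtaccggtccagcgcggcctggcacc
In Tmem198 the first element starts 27 bases before the gene's start, and in Clasp2 it starts 31 bases before. The E-box of Epn1 starts 26 bases before the start and that of Btbd8 116 bases before. Tmem198 had 1403, 1515, 1441 and 1545 in exercised fathers, against 1240, 1290, 1334 and 1302 in sedentary fathers, and Clasp2 had 10850, 11318, 10649 and 10694 in exercised fathers, against 12337, 12025, 11673 and 11541 in sedentary fathers. Their log2 fold changes were 0.19 (SE 0.04) and -0.13 (SE 0.04). Epn1 had 17125, 17011, 17402 and 18634 in exercised fathers, against 15345, 16032, 15918 and 15733 in sedentary fathers (log2 fold change 0.15, SE 0.04), and Btbd8 had 2978, 2585, 2637 and 2785 in exercised fathers, against 3305, 3443, 3080 and 3133 in sedentary fathers (log2 fold change -0.24, SE 0.05). Tmem198, Clasp2 and Epn1 did not hold with the other choroid plexus and thalamus markers or with the GC trend removed, while Btbd8 held in both. A match describes the letters of the promoter and says nothing of binding.

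Gene families and pathways were described by counts, in 68 lists that together cover 2920 tested genes. Of those, 81 held, or 2.77%, against 2.35% over all genes tested, and 28 lists had no member that held. By direction, 1.07% of all genes tested held as higher and 1.28% as lower, and the members that held below stand beside these shares. No list member passed limma over all genes, so the counts below describe directions and separation of the libraries. Of the 68 list medians, 44 had the sign of the list's difference from the overall median GC content. Members that held below did so with Ttr and Tcf7l2 together, and many did not in other settings. Rgs7bp, Il1rapl1, Ptprd, Pcdhgc3, Mrpl52, Eif3b and Eif5a2 held neither with the other choroid plexus and thalamus markers nor with the GC trend removed. The same was so for Eif1ax, Psmd8, Prdx6, Rab40b and Zfp518a. Rgs14, Cyp2d22, Eif4a2 and Cry2 did not hold with Tcf7l2 alone.

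Receptors for the main transmitters stood in both directions. Among subunits of AMPA, NMDA and kainate receptors, 8 of 17 had a higher mean in exercised fathers and 1, Grik5, held. Gria4, an AMPA receptor subunit of interneurons, had a log2 fold change of -0.18 (SE 0.06) with overlapping groups, and Grin3a and Grin1 stood at -0.19 and 0.08. The 21 auxiliary subunits of AMPA and kainate receptors divided, with Cnih2 holding as higher and Olfm3 and Shisa9 as lower, while Neto2, an auxiliary subunit of kainate receptors, stood at -0.23 (SE 0.08) with overlap. Of 17 GABA-A and GABA-B receptor subunits 13 had a lower mean, among them Gabra4, which held. The family's median log2 fold change was -0.07, -0.05 after content removal and -0.02 with the GC trend removed, and its median GC content was 43.1%. The metabotropic glutamate receptors had 7 of 7 members lower with a median of -0.08 and none without overlap. All medians stand beside 0.00 over all genes tested.

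Regulators of G protein signaling held in both directions. Of 20 tested, 10 had a higher and 10 a lower mean, with Rgs4, Rgs17 and Rgs7bp holding as lower and Rgs14 as higher. The shares over all genes tested were 1.28% for lower and 1.07% for higher. Rgs14, a scaffold enriched in CA2 pyramidal cells (ENSMUSG00000052087.13, GRCm38 chromosome 13, 55369732 to 55384687), had 3470, 3407, 3345 and 3463 in exercised fathers, against 3245, 3052, 3010 and 2784 in sedentary fathers, a log2 fold change of 0.18 (SE 0.05). Rgs7bp, which anchors the R7 group of these proteins at the membrane, had 11567, 12049, 11262 and 12140 in exercised fathers, against 14240, 13219, 12827 and 12210 in sedentary fathers, a log2 fold change of -0.16 (SE 0.05). Here the nearest libraries of the groups were exercised replicate 4 and sedentary replicate 4. Of the 28 G protein subunits 19 had a higher mean, and Gna15, the only one that held, was lowly expressed (log2 fold change 0.36, SE 0.14, mean normalized count 64.5).

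Postsynaptic scaffold genes stood mostly higher. Of 34 tested, 27 had a higher mean in exercised fathers, 5 did not overlap and 4 held, all as higher. Over all genes tested, 2.66% were higher without overlap and 1.07% held as higher. Agap2, a GTPase-activating protein of the postsynaptic density (ENSMUSG00000025422.9, GRCm38 chromosome 10, 127075284 to 127093169), had 57780, 58750, 58881 and 62524 in exercised fathers, against 54196, 54096, 51845 and 48437 in sedentary fathers. Ppp1r9b, which encodes spinophilin (ENSMUSG00000038976.12, GRCm38 chromosome 11, 94991035 to 95006899), had 54043, 53776, 52779 and 57464 in exercised fathers, against 50440, 50084, 49327 and 48916 in sedentary fathers. Shank3, a master scaffold of the density, had 13379, 13554, 13064 and 13889 in exercised fathers, against 12483, 12605, 12714 and 12913 in sedentary fathers. Their log2 fold changes were 0.19 (SE 0.05), 0.13 (SE 0.04) and 0.09 (SE 0.03), and Dlg4, which encodes PSD-95, also held at 0.10 (SE 0.04). The first 3 transcripts have a GC content of 62.3% to 63.0%, and with the GC trend removed their log2 fold changes were 0.10 for Agap2, 0.05 for Ppp1r9b and 0.00 for Shank3. Dlg4, at 46.8% GC, stood at 0.12 in that fit. None of the 4 held with Tcf7l2 alone, Shank3 and Dlg4 did not hold with the other choroid plexus and thalamus markers, and Shank3 did not hold with Ttr alone. Homer3 did not overlap but did not hold. The list's median was 0.06, 0.05 after content removal and 0.02 with the GC trend removed.

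Among adhesion molecules of the synapse most means were lower. Of 52 tested, 31 had a lower mean in exercised fathers, and the median log2 fold change was -0.03. Of these 52, 5 held as lower and 1 as higher, against 1.28% and 1.07% of all genes tested. Besides Cntn4, the leading members were Il1rapl1, an organizer of excitatory synapses, Ptprd, a receptor phosphatase that binds it, and Ptprf, of the same receptor family. Il1rapl1 (ENSMUSG00000052372.10, GRCm38 chromosome X, 86740870 to 88115645) had 629, 680, 654 and 671 in exercised fathers, against 855, 804, 722 and 729 in sedentary fathers, a log2 fold change of -0.24 (SE 0.06). Ptprd had 10136, 9688, 9345 and 10128 in exercised fathers, against 11068, 11320, 10215 and 10754 in sedentary fathers, a log2 fold change of -0.14 (SE 0.04). In both the groups did not overlap, the exercised libraries being low. Ptprf had 3009, 3073, 3011 and 3272 in exercised fathers, against 2453, 2637, 2974 and 2672 in sedentary fathers, higher in exercised fathers without overlap, but it did not hold once content was removed. Of 67 protocadherins 42 had a lower mean with a median of -0.05, Pcdh9 held as lower and Pcdhgc3 as higher at 0.17 (SE 0.05). Pcdhgc3 shares its strand and constant exons with the other genes of the gamma cluster, so its count is uncertain. Pcdh7 and Pcdhb16 stood at -0.18 and -0.20, both with overlap.

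Most nuclear genes of mitochondria had slightly higher means in exercised fathers. Of 78 mitochondrial ribosomal proteins 61 had a higher mean in exercised fathers, with a median log2 fold change of 0.03 that was 0.01 after content removal. Of the 78, 7 did not overlap, all as higher, against 2.66% of all genes tested. Only 2 held, a share near the 2.35% of all genes tested. Mrpl52 (ENSMUSG00000010406.11, GRCm38 chromosome 14, 54426909 to 54429756) led with 539, 529, 530 and 498 in exercised fathers, against 413, 440, 490 and 468 in sedentary fathers, a log2 fold change of 0.21 (SE 0.07), and Mrps26, Mrps7 and Mrpl15 stood at 0.14, 0.13 and 0.10. Of 80 nuclear-encoded respiratory chain subunits 54 had a higher mean, with Atp5k and Uqcr11 at 0.15 each and Ndufa2 at 0.14 without overlap, but none held, and the median of 0.03 became -0.02 after content removal. The 13 mRNAs of the mitochondrial genome had 12 members with a lower mean, a median of -0.03 and no member at an unadjusted p under 0.05. That median was -0.16 after content removal and turned to 0.07 with the GC trend removed, at a median GC content of 37.1%. Higher means were not particular to mitochondrial genes. Of 80 cytosolic ribosomal proteins 69 had a higher mean and 3 held as higher, with a median of 0.04 that was 0.07 after content removal. Of 53 translation initiation factors 4 did not overlap in each direction, and 1 held as higher and 3 as lower. Eif3b, a core subunit of eIF3, held as higher with 4132, 3907, 4088 and 4120 in exercised fathers, against 3771, 3643, 3768 and 3780 in sedentary fathers, and Eif5a2, the second eIF5A gene, held as lower with 2475, 3054, 2867 and 2798 in exercised fathers, against 3124, 3274, 3084 and 3217 in sedentary fathers. Eif4a2 and Eif1ax held as lower as well, at -0.10 (SE 0.04) and -0.09 (SE 0.04). Of 48 proteasome subunits 35 had a higher mean and 1, Psmd8, held at 0.09. Psmd9, a chaperone of proteasome assembly, stood at 0.18 and Psmc6 at -0.11, both with overlap.

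Among metabolic and protective genes, 27 of 38 antioxidant enzymes and metallothioneins had a higher mean and 2 held. Prdx6, a peroxiredoxin abundant in astrocytes (ENSMUSG00000026701.15, GRCm38 chromosome 1, 161240112 to 161251219), had 7145, 6918, 8108 and 7083 in exercised fathers, against 5976, 6488, 6718 and 6843 in sedentary fathers, a log2 fold change of 0.17 (SE 0.06), and the other was Gstm5. Mt3, a brain metallothionein, did not overlap at 0.15 (SE 0.04) but did not hold. Of 26 cytochrome P450 genes Cyp4f15 and Cyp2d22 held as higher, and Cyp4x1, a brain-enriched member, held as lower with 649, 686, 686 and 675 in exercised fathers, against 763, 792, 716 and 745 in sedentary fathers. Inositol phosphate enzymes had 22 of 35 members higher, with Itpka holding as higher and Inpp4b as lower. Of 55 Rab GTPases, regulators of vesicle traffic, 30 had a higher mean. Rab5a of early endosomes held as lower with 5543, 5730, 5790 and 5556 in exercised fathers, against 6171, 6110, 5803 and 6298 in sedentary fathers, but did not hold with slopes from the fathers or with the GC trend removed. Rab5b, of the same subgroup, held as lower at -0.06 (SE 0.03), also under every other content measure and with the GC trend removed. Its limma unadjusted p was 0.096, however, and with both content covariates its log2 fold change was -0.03 (SE 0.06). Rab18 of lipid droplets held as lower at -0.08 (SE 0.03) and Rab40b held as higher at 0.13 (SE 0.05).

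Among nuclear factors, zinc finger genes stood mostly lower. Of 365 genes named Zfp, a group that holds many KRAB repressors, 230 had a lower mean in exercised fathers, with a median log2 fold change of -0.04 that became 0.00 with the GC trend removed, at a median GC content of 44.1%. Zfp518a led with 599, 579, 570 and 505 in exercised fathers, against 652, 649, 650 and 668 in sedentary fathers, a log2 fold change of -0.22 (SE 0.06). Of the 365, 4 held as lower and 1 as higher, against 1.28% and 1.07% of all genes tested. Neither share exceeded that of all genes. Of 79 homeobox and developmental factors 11 had an unadjusted p under 0.05 as higher and 6 as lower, against 777 and 625 of the 17493 genes tested. The higher ones were led by Dlx1 of forebrain interneurons with 926, 880, 1145 and 1087 in exercised fathers, against 783, 792, 833 and 746 in sedentary fathers. Dlx1 held, at 0.35 (SE 0.08), while Dlx5 at 0.43 and Dlx6 at 0.47 did not. Of 16 interneuron markers, a list that includes Dlx1 and Dlx5, 13 had a higher mean, 6 had an unadjusted p under 0.05 and 4 did not overlap, all as higher. Of these, the neuropeptide genes Sst and Npy stood at 0.22 (SE 0.04) and 0.25 (SE 0.05) and did not hold. Of the 16 markers only Dlx1 held. Over all genes tested, 777 of 17493 were higher at a limma unadjusted p under 0.05, and 2.66% were higher without overlap. The list had a summed normalized count from 49480 to 58543 in exercised fathers and from 50209 to 52431 in sedentary fathers, and their part in Dlx1 was not tested. Clock genes stood in both directions. The repressors Cry2, Cry1 and Per3 had higher means, Cry2 holding with 5532, 5620, 5803 and 5883 in exercised fathers, against 5124, 5292, 5372 and 5178 in sedentary fathers, a log2 fold change of 0.12 (SE 0.03). The output factor Hlf had 8200, 8712, 8246 and 8880 in exercised fathers, against 9251, 9159, 9390 and 9624 in sedentary fathers, without overlap at -0.14 (SE 0.04), but did not hold. Among 35 nuclear receptors Nr3c1 alone held, and Rxrb, Ppara and Nr2c1 stood at 0.13, 0.47 and -0.21. RNA helicases of the DEAD and DEAH families held in 3 of 52 cases, all lower, against 1.28% of all genes tested that held as lower. These were Ddx3y of the Y chromosome at -0.19 (SE 0.06), Dhx36, which unwinds G-quadruplexes, at -0.12 (SE 0.04) and Ddx42 at -0.09 (SE 0.04). None of the 3 held with the other choroid plexus and thalamus markers or with the GC trend removed.

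In several families no member held, against 2.35% of all genes tested. At that share lists of these sizes have few such members or none, so their absence is no result about the families. These include 80 potassium channel genes, where Kcna2, an axonal channel subunit, had 12278, 12375, 12124 and 12387 in exercised fathers, against 13585, 13993, 13974 and 13263 in sedentary fathers without overlap, a log2 fold change of -0.16 (SE 0.03), and overlapped after content removal. They also include 17 voltage-gated calcium channels, 11 sodium channels, 22 HCN and TRP channels and 31 monoamine and muscarinic receptors. Further such lists were 34 neuropeptide precursors and other secreted proteins, and 34 neuropeptide receptors. Of the former, Sst, Npy and Cort as higher and Cbln2 as lower were without overlap. The last were 57 collagens and laminins, 52 kinesins and dyneins and 33 tubulins and their associated proteins. In the Notch pathway 26 of 32 members had a higher mean with a median of 0.07, yet none was without overlap, and its 2 members with the smallest p stood in opposite directions, Heyl at -0.47 (SE 0.14) and Hes5 at 0.34 (SE 0.12). Both are targets of Notch. The log2 fold change of Heyl was 0.07 once content was removed.

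The share of genes without overlap differed with abundance. The share of genes without overlap was 3.08% of 3249 genes with a mean normalized count under 50, 2.82% of 2478 genes from 50 to 200, 5.15% of 4602 from 200 to 1000, 6.02% of 5263 from 1000 to 5000 and 7.89% of 1901 above 5000. The share that held followed the same order, at 1.23%, 0.888%, 2.22%, 2.93% and 4.89%. Median standard errors ran the other way, at 0.27, 0.15, 0.08, 0.05 and 0.05, as did median absolute log2 fold changes, at 0.21, 0.12, 0.07, 0.05 and 0.05, so abundant genes separated on smaller differences. Among genes under 50 more were lower than higher in exercised fathers. There 79 genes were lower without overlap against 21 higher, and 40.9% of the class had a higher mean, against 56.5% of genes from 200 to 1000. The filter asks for 4 libraries, the size of 1 group. A gene that passed it only through the libraries of 1 group is therefore without overlap by construction, and such genes were not counted apart. The highest class holds 66.1% of all reads. A further 12354 genes had a value above 0 in at least 1 library but stayed below the filter of 10 normalized counts in 4 libraries, and 22065 were at 0 in all 8.

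The most abundant gene that held in each class from 50 upward included a transcription factor, a phosphatase and a synaptic protein. Snap25, a core component of the vesicle fusion machinery (ENSMUSG00000027273.13, GRCm38 chromosome 2, 136713453 to 136782428), had 83240, 85871, 84381 and 87663 in exercised fathers, against 94260, 95392, 87903 and 93264 in sedentary fathers, a log2 fold change of -0.12 (SE 0.05) that was -0.04 with the GC trend removed and -0.03 (SE 0.09) with both content covariates. Ppm1b, a metal-dependent phosphatase, had 4841, 4768, 4750 and 4847 in exercised fathers, against 5117, 5239, 5127 and 5165 in sedentary fathers (log2 fold change -0.10, SE 0.03). Zbtb17, which encodes MIZ-1, had 1009, 1001, 1030 and 1103 in exercised fathers, against 943, 924, 933 and 937 in sedentary fathers (log2 fold change 0.15, SE 0.04). CT009718.1, known only by this identifier, stood at -0.31 (SE 0.10) in the class from 50 to 200.

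**Figure D4:**
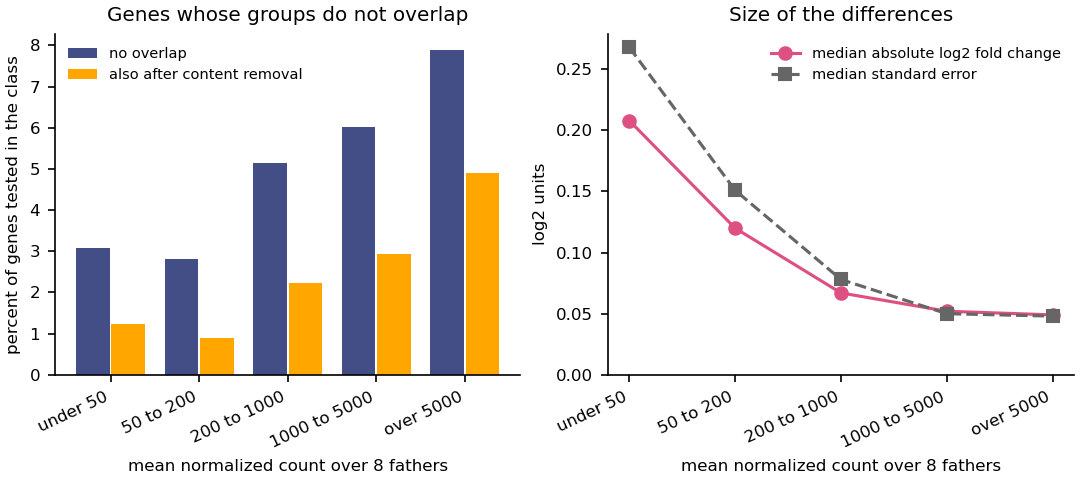
Left, percent of tested genes whose exercised and sedentary libraries do not overlap, and percent that also hold after content removal, in 5 classes of mean normalized count over the 8 fathers. Right, median absolute log2 fold change and median standard error per class. The share without overlap reaches 7.89% above 5000 counts, where the median absolute difference is 0.05.

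The largest differences without overlap lay among genes of low count. Dmrtb1, a factor of the doublesex family (ENSMUSG00000028610.16, GRCm38 chromosome 4, 107676290 to 107684230), had 55.34, 18.97, 24.10 and 32.36 in exercised fathers, against 4.24, 14.65, 14.44 and 14.45 in sedentary fathers, a log2 fold change of 1.40 (SE 0.43), and held. Exercised replicate 1 was far above and sedentary replicate 1 far below the rest. AC163637.2 (1.77, SE 0.74) and the predicted gene Gm8108 (0.85, SE 0.28) did not overlap but did not hold, and the sign of Gm8108 turned to -0.58 after content removal. AC163637.2 overlaps 3 protein-coding genes on its strand. On the lower side Gm3608 (-1.13, SE 0.37) held, although both content covariates left it at -0.18 (SE 0.77), and A430105J06Rik (-1.10, SE 0.49) did not.

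Among genes without overlap, the largest lower difference was in Chrnb3, a nicotinic acetylcholine receptor subunit of habenula and midbrain (ENSMUSG00000031492.13, GRCm38 chromosome 8, 27368711 to 27399730), which had 17.11, 18.97, 24.10 and 12.53 in exercised fathers, against 25.42, 143, 79.98 and 59.86 in sedentary fathers. All sedentary libraries were above all exercised ones, sedentary replicate 1 only just, and the log2 fold change of -1.81 (SE 0.44) was -1.29 after content removal. Nhlh2, a neuronal transcription factor that held as well, had 68.43, 50.92, 74.08 and 61.59 in exercised fathers, against 82.18, 168, 102 and 105 in sedentary fathers (log2 fold change -0.80, SE 0.21). Tmem169, a membrane protein, had 527, 535, 534 and 569 in exercised fathers, against 647, 657, 583 and 636 in sedentary fathers (log2 fold change -0.22, SE 0.06). With both content covariates the log2 fold change was -1.71 (SE 0.94) for Chrnb3, -0.36 (SE 0.46) for Nhlh2 and -0.07 (SE 0.11) for Tmem169, so that the last 2 were smaller than their standard errors. These 3 were the only genes of the authors' deposited list of 21 changed genes that held. The list was chosen on these libraries, so its directions are no independent evidence. Chrnb3 and Nhlh2 were highest in sedentary replicate 2, as was the habenula transcription factor Pou4f1, while Tcf7l2 was highest in sedentary replicate 4. A slope on Tcf7l2 therefore need not follow habenula content, whose part in Chrnb3 and Nhlh2 was not tested.

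In the authors' deposited table the adjusted p of the 21 genes ran from 6.69e-05 to 0.0978, with 14 genes of the whole table under 0.05, and 20 of the 21 were lower in exercised fathers. Of the list, 13 genes passed the filter used here and 7 of them had an unadjusted limma p under 0.05. The highest library was sedentary replicate 4 for 10 genes, sedentary replicate 2 for 8, sedentary replicates 1 and 3 for 1 each, and an exercised library for 1. For 9 genes 1 sedentary library held over 50% of the summed count of the 8 fathers. Slc6a3, the dopamine transporter of midbrain neurons, had 18.11, 7.99, 11.60 and 6.26 in exercised fathers, against 3.39, 12.21, 14.44 and 479 in sedentary fathers, so that sedentary replicate 4 held 86.6% of the sum. In the authors' deposited table its unmoderated log2 fold change was -3.24 and its adjusted p 6.69e-05. With limma its log2 fold change was -1.19 (SE 1.18), and 0.22 without sedentary replicate 4.

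Shox2, Tnnt1, Rab37 and Vipr2 were highest in sedentary replicate 4 and next highest in sedentary replicate 3. Shox2, a thalamic transcription factor, had 17.11, 5.99, 38.38 and 57.41 in exercised fathers, against 6.78, 75.70, 372 and 920 in sedentary fathers, and its log2 fold change of -2.37 (SE 1.29) was 0.32 after content removal and -0.07 without sedentary replicates 3 and 4. Tnnt1, slow skeletal troponin T, had 53.33, 51.92, 82.12 and 85.60 in exercised fathers, against 32.20, 54.54, 374 and 806 in sedentary fathers. Rab37, a GTPase of secretion, had 128, 104, 130 and 172 in exercised fathers, against 110, 168, 328 and 764 in sedentary fathers, and Vipr2, a receptor of vasoactive intestinal peptide, had 29.18, 24.96, 31.24 and 40.71 in exercised fathers, against 29.65, 43.95, 128 and 212 in sedentary fathers. For Shox2, Rab37 and Vipr2 sedentary replicate 1 lay within the exercised range, and for Tnnt1 it lay below it. Fam19a4, Atp2a1, Gata3, Chrna6 and Abhd12b were also highest in sedentary replicate 4 or 3, Gata3 with 8.05, 1.00, 7.14 and 5.22 in exercised fathers, against 1.69, 4.07, 87.75 and 77.40 in sedentary fathers.

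Pou4f1, Chrna3, Irx2, Ckm and Gm5741 were highest in sedentary replicate 2. Pou4f1, a habenula transcription factor, had 3.02, 3.00, 16.07 and 1.04 in exercised fathers, against 2.54, 158, 22.22 and 6.19 in sedentary fathers, and Chrna3, a nicotinic subunit, had 19.12, 22.96, 26.78 and 21.92 in exercised fathers, against 16.10, 203, 63.32 and 40.25 in sedentary fathers. Irx2, a homeobox gene, had 7.04, 2.00, 10.71 and 6.26 in exercised fathers, against 3.39, 87.91, 61.09 and 54.70 in sedentary fathers, where 3 sedentary libraries were high and sedentary replicate 1 lay within the exercised range. Ckm, muscle creatine kinase, had 0, 0, 3.57 and 0 in exercised fathers, against 0, 59.42, 0 and 3.10 in sedentary fathers, and Gm5741 was listed at 0 in all exercised fathers with 40.7 in sedentary replicate 2. Alb, serum albumin, was highest in sedentary replicate 1, with 1.01, 0, 2.68 and 2.09 in exercised fathers, against 94.04, 21.98, 1.11 and 0 in sedentary fathers. The single higher gene, Rbp3, a retinoid-binding protein of retina and pineal, had 2.01, 2.00, 129 and 2.09 in exercised fathers, against 2.54, 2.44, 4.44 and 1.03 in sedentary fathers, so that exercised replicate 3 carried it alone. In the authors' deposited gene ontology table for the fathers, none of 20 terms had a Benjamini-adjusted p under 0.05. Cholinergic synaptic transmission, with the genes Chrna3, Chrna6 and Chrnb3, was lowest at 0.056, and regulation of muscle contraction, with Atp2a1, Chrna3 and Tnnt1, followed at 0.0652.

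**Figure D5:**
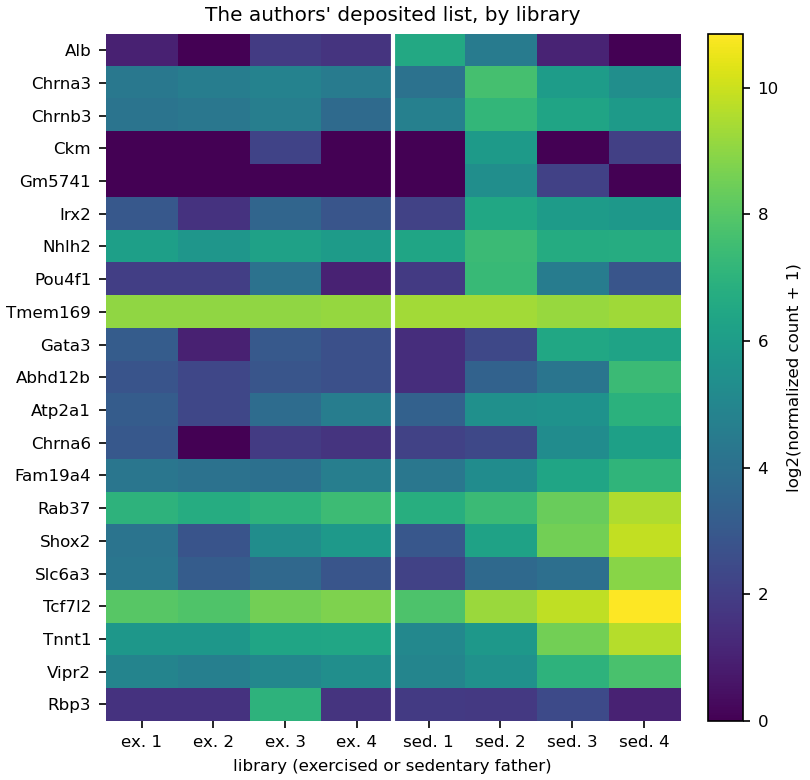
Heat map of the authors' deposited list of 21 genes in the 4 exercised (left) and 4 sedentary (right) fathers, coloured by log2(normalized count + 1) and ordered by the library in which each gene is highest. Most rows are bright in sedentary replicate 2 or in sedentary replicates 3 and 4 only, Tmem169 is close to even, and Rbp3 is bright in exercised replicate 3 alone.

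The genes that held were last set beside the 15 offspring, whose libraries are separate from those of the fathers, although the content slopes came from them. The labels call the offspring litters and do not state which share a father or a litter, and the titles of some offspring of exercised fathers differ only in the final digit. The offspring are counted here as separate samples, so p-values and slopes take no account of shared litters. Of the 187 higher genes, 137 (73.3%) also had a higher mean in offspring of exercised fathers than in offspring of sedentary fathers, against 49.4% of all genes tested. Of the 224 lower genes, 181 (80.8%) had a lower mean there, against 50.6% of all. GC content ran with the direction in the offspring as well. Of all tested genes in the highest GC class 72.2% had a higher mean in offspring of exercised fathers, and in the lowest class 69.0% had a lower mean. Within those classes the shares for genes that held were 84.0% (100 genes) for the higher and 86.1% (130 genes) for the lower genes. The part of GC content in these shares was not tested. The 36 genes that held under every content measure and with the GC trend removed stood in both directions in the offspring. Among the leading genes in that set, Cyp4f15 at 0.16, Rhpn1 at 0.004 and Btbd8 at -0.02 kept the fathers' sign, and Rgs4 at 0.05 did not. Plxnb1 at 0.06 kept it too, while Marcks at 0.05, Dlx1 at -0.11 and Rhof at -0.02 did not. Medians in the offspring were small, at 0.04 for the higher and -0.05 for the lower genes on the log2 scale, and 16 of the higher genes had an unadjusted p under 0.05 in the same direction there, as did 21 of the lower genes, against 759 higher and 964 lower of the 17493 genes tested, while 3 of the higher and 2 of the lower genes passed that p in the opposite direction. Within the GC classes, 14 of the 119 higher genes passed in their direction, against 423 of all 4360 genes of the highest class, so that the share was close to that of the class. In the lowest class, which contains 67.4% of the lower genes that held, 18 of those genes passed, against 474 of all 4360 genes, again a share close to that of the class.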

How the data were processed

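Hippocampal mRNA of 8 fathers and 15 offspring was sequenced as paired reads of 76 bases on a HiSeq2000, from 500 ng of total RNA with oligo-dT selection, a strand-specific kit and 15 PCR cycles, per the labels' protocols. STAR 2.5.2a, RSEM 1.2.28, DESeq2 1.10 and GRCm38 are listed in the submitters' processing notes with no role. Neither the annotation nor the strand setting is stated there. The titles of the tables mention an omitted outlier and do not say which library it was.

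The authors deposited normalized counts, a signal that the values show to be whole reads divided by 1 factor per library. Dividing by the value of 1 read put 100% of values within 0.1 of an integer, and these reads gave the depths and the count tests. The authors' deposited comparison table of the fathers gives log2 fold changes and p-values, and their gene ontology table a fold enrichment ratio and p-values, per the file headers. Of 51912 identifiers, 51633 matched GENCODE M21 (GRCm38) without the version.

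Groups follow the labels; numbers of replicates are names. Separate animals per library are not stated, so p-values measure only the spread between these samples. The 12 pairs within groups gave a chi-square per degree of freedom from 8.98 to 42.6 over genes with at least 20 reads, so none agreed within sampling noise. Amplified reads lack molecular identifiers, so depths overstate the precision. The barcode of exercised replicate 4 is from another number series, AD21, that holds no sedentary father, and fits without it were run.

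Genes with at least 10 normalized counts in at least 4 of the 8 fathers were tested with limma 3.58.1 (R 4.3.3, empirical Bayes, mean-variance trend, two-sided) on log2(normalized count + 1), which understates differences of low genes, with Benjamini-Hochberg adjustment over all genes tested and a threshold of 0.05. edgeR 4.0.16 (quasi-likelihood) and DESeq2 1.42.0 on the recovered reads, other filters, pseudocounts, quantile normalization, content covariates and leaving out libraries were alternatives. Slopes on log2 Ttr and log2 Tcf7l2 were least-squares fits in the offspring. The scripts were tested on simulated data.

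The comparison, the gene lists and the rules were chosen with earlier results of these data known. Genes named are the 12 higher and 12 lower protein-coding genes that held with the smallest p, the authors' list, up to 4 members per list with the smallest p, Ttr and Tcf7l2, the most abundant gene that held per class and the 3 largest differences without overlap in each direction. Members that held but fell outside the first 4 by p, and the genes of printed promoters, were named after their values were seen. Some genes that the rule names are not reported here.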

Additional observations from a re-analysis of the deposited data

Results flagged for a closer look

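Each gene named by rule was examined for a library far from the other 3 of its group, by the gap to the nearest library over the group's range and Dixon's critical value. Of 94 groups examined 4 were marked, all among sedentary fathers, and chance marks about 1 in 20 groups. Slc6a3 had 478.85 normalized counts in sedentary replicate 4, against 3.39 to 14.44 in the other sedentary fathers. Cntn4 was highest in sedentary replicate 4 as well, at 1275.57, against 1149.67 to 1168.36. Gstm5 was lowest in sedentary replicate 1, at 3915.15, against 4063.30 to 4083.68. Dmrtb1 was lowest in sedentary replicate 1, at 4.24, against 14.44 to 14.65.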

How the results depend on the processing

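The count of genes called by limma was 0 with a filter at 50 or none, a pseudocount of 0.5 or 5, quantile normalization, content covariates, content or GC trend removed, any 1 library left out, and without sedentary replicates 3 and 4. It was 66 with DESeq2 and 1 without sedentary replicates 1 and 2 together. With both content covariates it was 0, and from 0 to 1 with a library left out. Genes at an unadjusted p under 0.05 numbered 3319 with the Tcf7l2 covariate, 3930 with content removed, where the error of the slopes is not counted, 2781 without sedentary replicates 3 and 4, and from 918 without exercised replicate 4 to 1788 without sedentary replicate 4.

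Genes without overlap numbered 582 with the GC trend removed, 4813 without sedentary replicates 3 and 4, 2870 without sedentary replicates 1 and 2, and from 1166 to 1807 with 1 library left out. Fewer libraries overlap less often by construction. Genes that held numbered 206 with other markers, 657 with slopes from the fathers, 674 with Ttr alone and 188 with the GC trend removed, and from 529 to 891 with 1 library left out, when between 393 and 411 of the 411 still held. They numbered 2028 without sedentary replicates 3 and 4 (367 of the 411) and 1152 without sedentary replicates 1 and 2 (345 of the 411). Groups that do not overlap in all libraries cannot overlap in fewer of them, before or after removal. How many of the 411 still held with libraries left out was thus largely fixed in advance and is no separate evidence. With content removed, genes without overlap numbered 232, 175, 527, 988 and 385 from the lowest to the highest class of abundance.

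The sign turned for Slc6a3 (from -2.04 without sedentary replicate 1 to 0.22 without sedentary replicate 4, 0.84 with the Tcf7l2 covariate, 0.49 with both, 0.56 without sedentary replicates 3 and 4), Shox2 (0.34 with the Tcf7l2 covariate, 0.043 with both, 0.32 with content removed), Tnnt1 (0.54 with the Tcf7l2 covariate, 0.74 with content removed, 0.65 without sedentary replicates 3 and 4), Rab37 (0.012 with the Tcf7l2 covariate), Atp2a1 (0.36 with both covariates), Fam19a4 (0.36 with content removed), Gm8108 (-0.58 with content removed) and Ttr (-0.63 without sedentary replicates 1 and 2). The cause was not tested. Of 85 list medians, 68 changed sign in at least 1 setting. No paired analysis was possible because the labels give the fathers no replicate numbers. The GC trend and the fits without pairs of libraries were chosen after seeing the data. The standard error, with a median of 0.27 under 50 counts, limits what genes of low count can show.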

Other observations

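The 36 genes that held under every content measure and with the GC trend removed are described here as values, and those named were chosen after their values were seen. Marcks, a myristoylated protein that binds actin and phosphoinositides at the membrane, had 7586, 7433, 7693 and 7763 in exercised fathers, against 8309, 8612, 8377 and 8195 in sedentary fathers (log2 fold change -0.14, SE 0.03). Plxnb1, a receptor of semaphorin 4D, had 5150, 4826, 4884 and 5218 in exercised fathers, against 4227, 4619, 4690 and 4364 in sedentary fathers (log2 fold change 0.17, SE 0.04). Rhof, a small GTPase that forms filopodia, had 1501, 1511, 1632 and 1688 in exercised fathers, against 1421, 1425, 1434 and 1351 in sedentary fathers (log2 fold change 0.17, SE 0.05). For these 3 the libraries of the groups did not overlap, and the limma adjusted p was 0.539 for each. Mex3a, an RNA-binding protein of progenitor cells, stood at 0.31 (SE 0.08) and Igdcc3, a surface protein of the immunoglobulin family, at 0.43 (SE 0.13), both higher in exercised fathers.

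Others of the set were Ivd, the mitochondrial isovaleryl-CoA dehydrogenase of leucine breakdown, at 0.10 (SE 0.03), Fam210b at 0.16 (SE 0.04), and Stx12, an endosomal syntaxin, at -0.08 (SE 0.03). Pseudogenes and transcripts of low count made up part of the lower genes, such as Vdac3-ps1, which had 13.08, 17.97, 17.85 and 16.70 in exercised fathers, against 29.65, 27.67, 29.99 and 27.86 in sedentary fathers, and Tpt1-ps3 (log2 fold change -0.55, SE 0.16). Reads of such near-identical copies can be assigned to the parent gene or the copy, so their counts are uncertain. Of all genes that held, 14 were pseudogenes, 10 of them lower, out of 457 pseudogenes tested.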
